A study of Sus scrofa with 61 samples.

Results

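The genes described here encode helix-loop-helix proteins that work beside the muscle-determining transcription factors: the E-proteins TCF12, TCF3 and TCF4, the inhibitors ID1, ID2, ID3 and ID4, and the transcription factors TWIST1, MESP1 and HEY1. A probe was taken as theirs when its gene name on the array, or its symbol in the gene lists of the study, was one of these 10 symbols, and all probes of each gene were kept. This gave 25 of the 60305 probes of the array. Of these, 23 were among the 42429 probes retained, for which 80% or more of the fetuses in some group gave a signal well above background, and all 10 genes had a retained probe.

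E-proteins carry a basic region that contacts the E-box of DNA and a helix-loop-helix that joins them to a tissue-specific partner, which in muscle cells is MYOD1, MYF5, MYF6 or MYOG. The ID proteins have the helix-loop-helix without the basic region, so an E-protein bound to an ID protein cannot bind DNA, and myoblasts lose ID expression as they differentiate. TWIST1 competes for the same E-proteins in mesenchymal and progenitor cells, MESP1 acts in the early mesoderm, and HEY1 is a transcriptional repressor induced by the Notch pathway.

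RNA of the longissimus muscle, the long muscle of the back, was measured in 61 male pig fetuses on 1-colour arrays of 60-base oligonucleotides. Fetuses were taken by caesarean at day 90 or day 110 of gestation. Sows of the Large White breed (LW), or of the Chinese Meishan breed (MS), whose piglets survive birth better, were inseminated with mixed semen of both breeds. A litter could therefore hold both purebred and crossbred fetuses, with the code MSLW for an MS boar and LW sow and LWMS for the reverse. At day 90 each genotype had 8 fetuses, and at day 110 there were 9 of LW, 7 of MS, 8 of LWMS and 5 of MSLW. Comparisons of ages, breeds and crosses below share these fetuses and are not independent of each other. No fetus was treated. The sow of each fetus was not given in the labels, so littermates were counted as separate fetuses and the spread between them may be smaller than that between litters.

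Between 34341 and 45672 probes were well above background on an array. Muscle markers were bright on every array: the mean log2 intensity of 10 fibre genes such as ACTA1, CKM and MYH7 lay between 16.69 and 17.23. The array farthest from its group was that of MSLW replicate 2 at day 90, whose deviations from the group means had an SD of 0.42 against a median of 0.25, and leaving it out changed no count of called genes reported here. Each of the 8 slides held between 6 and 8 of the groups. The study's muscle samples were whole tissue, in which fewer cells of a type and less RNA per cell cannot be told apart.

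The sequences below are those of probes on which the reading of a gene depends. TCF3 had a single, dim probe:

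TCF3: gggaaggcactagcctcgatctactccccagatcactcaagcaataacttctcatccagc

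The name TCF4 is also used for TCF7L2, an unrelated HMG-box protein. The array describes both TCF4 probes as transcription factor 4 and has separate probes for TCF7L2, so TCF4 here is the E-protein. ID4 was read by 4 probes, of which a first pair overlapped and differed at 2 of the 58 shared positions (A1G and A23C, counted from the 5′ end of the first, with the differing bases in capitals):

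ID4 first probe: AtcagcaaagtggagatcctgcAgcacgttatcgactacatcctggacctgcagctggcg

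ID4 second probe: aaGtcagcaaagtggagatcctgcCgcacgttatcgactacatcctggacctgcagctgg

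MESP1 was the gene with the least certain probe. The probe that bears its name on the array was well above background on 2 of the 60 arrays where it was read and was not retained. The probe retained under this name is called LOC100155863 on the array and MESP1 in the study's gene lists, and RefSeq gives MESP1 as the symbol of that locus. By the array's annotation it starts at position 711 of its transcript model. A second probe of the locus starts at position 666 of that model and shares a run of 14 bases with it (in capitals), but it does not fall under the rule used here because it carries neither name:

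MESP1 retained probe: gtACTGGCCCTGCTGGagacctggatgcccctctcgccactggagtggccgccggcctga

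MESP1 second probe of the locus: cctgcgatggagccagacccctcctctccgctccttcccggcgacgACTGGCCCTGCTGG

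Each gene is described by its brightest retained probe, and levels are normalized log2 intensities. Levels of different probes were not compared with each other.

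The first question was how these genes changed over the last weeks of gestation, from day 90 to day 110. Averaged over the 4 genotypes, 9 of 10 genes fell and none rose (limma, Benjamini-Hochberg adjusted p under 0.01), where 35% of all retained probes fell and 37.3% rose. Their median log2 difference was -0.73, beside 0.04 over all retained probes. Among all 23 retained probes of the genes, 22 fell. TWIST1 was the exception, with a log2 difference of 0.11 (SE 0.07, adjusted p = 0.117). Of the 9 genes that fell, MESP1 is counted only through gene lists that the study chose on these same samples. Its calls, here and in the counts below, are not independent of that choice. The second probe of its locus, which the rule left out, rose by 0.33.

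TCF4, the E-protein also called E2-2, fell most. In LW fetuses its level had a lowest, median and highest value of 13.10, 13.22 and 13.36 at day 90 and of 11.84, 12.23 and 12.36 at day 110. In MS fetuses these values were 13.17, 13.36 and 13.49 at day 90 and 11.73, 12.02 and 12.20 at day 110. The 5 MSLW fetuses at day 110 measured 11.94, 12.17, 12.76, 12.09 and 12.11. No fetus of day 110 reached the lowest value of day 90 in its own genotype, in any of the 4 genotypes. The mean log2 difference was -1.20 (SE 0.04, adjusted p = 2.53e-34), a level 2.30-fold lower. Its second probe gave -1.08 (SE 0.05), and it too separated the ages in all 4 genotypes.

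TCF12, the E-protein HEB, had lowest, median and highest levels of 11.29, 11.43 and 11.55 in LW and 11.49, 11.59 and 11.75 in MS fetuses at day 90. At day 110 the values were 10.69, 10.92 and 11.33 in LW and 10.19, 10.58 and 10.68 in MS fetuses. The ages did not overlap in 3 of 4 genotypes, and in LW the highest fetus of day 110 reached the range of day 90. The mean log2 difference was -0.77 (SE 0.04, adjusted p = 1.81e-24). The array annotates this probe with a human transcript, and it stands in gene lists that the study chose on these same samples. The array holds 6 more probes of a pig locus described as transcription factor 12-like, which the rule did not take. All 6 fell, with log2 differences between -0.77 and -0.29, although in LW fetuses alone 3 of the 6 were called.

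TCF3 encodes the E-proteins E12 and E47. Its single probe was dim, with mean levels between 5.44 and 6.15 in the groups of day 90 and between 4.69 and 5.39 in those of day 110, and at day 110 it was well above background in 5 of 7 MS fetuses. The mean log2 difference was -0.85 (SE 0.10, adjusted p = 2.42e-11), with ranges of the ages that overlapped in every genotype. In 1 LWMS fetus of day 110 the spot was marked as non-uniform and left out. It read 15.69 on the log2 scale before normalization, where no other array passed 6.79, and keeping it removed every call for TCF3.

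**Figure D1:**
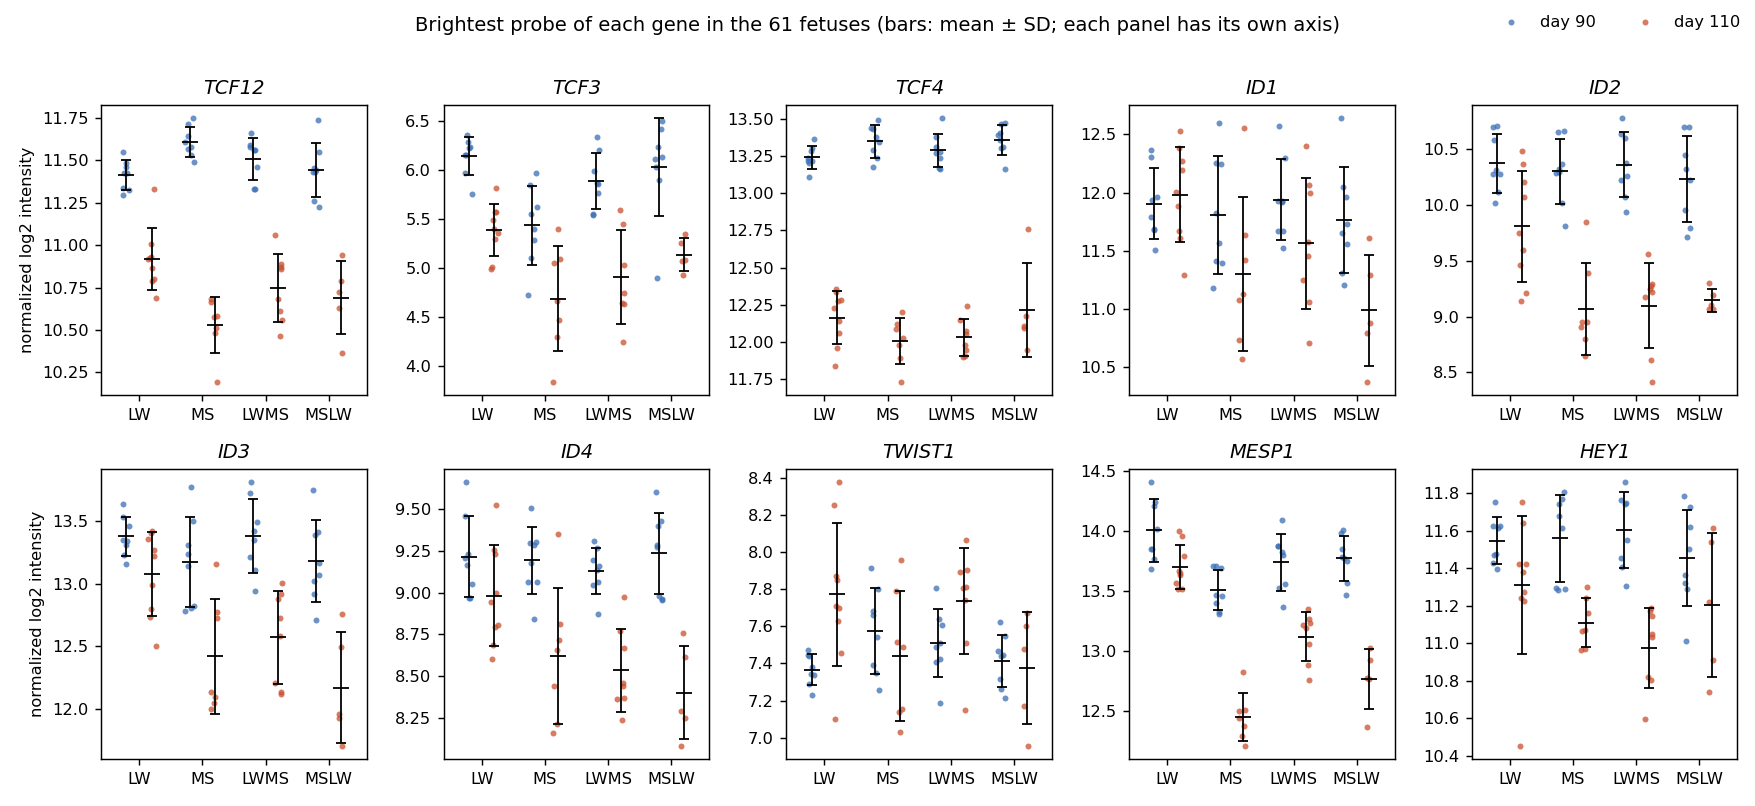
Normalized log2 intensity (vertical axis) of the brightest retained probe of each gene in the 61 fetuses, by fetal genotype (horizontal axis) and age (blue day 90, red day 110), with the mean and SD in black; each panel has its own axis, and the TCF3 panel lacks the fetus whose spot was left out. TCF4 separates the ages in all 4 genotypes, whereas the ID1 values of the ages overlap in each of them.

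The ID genes fell less evenly. ID2 fell most of the 4, and its level had a lowest, median and highest value of 10.01, 10.30 and 10.71 in LW and 9.81, 10.31 and 10.67 in MS fetuses at day 90. At day 110 these were 9.14, 9.75 and 10.48 in LW and 8.64, 8.95 and 9.85 in MS fetuses. The 5 MSLW fetuses of day 110 measured 9.19, 9.10, 9.06, 9.06 and 9.30. In both crosses the ages were fully separated, while in both pure breeds they overlapped. The mean log2 difference was -1.04 (SE 0.09, adjusted p = 1.77e-15), a level 2.05-fold lower. All 6 ID2 probes fell, by log2 differences between -1.07 and -0.96, and pairs of them share up to 36 bases.

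ID3 was bright at both ages. Its lowest, median and highest levels were 13.15, 13.35 and 13.63 in LW and 12.78, 13.19 and 13.77 in MS fetuses at day 90. They were 12.50, 13.23 and 13.42 in LW and 12.00, 12.14 and 13.16 in MS fetuses at day 110. The ages overlapped in all 4 genotypes. The mean log2 difference was -0.72 (SE 0.09, adjusted p = 1.51e-10). The other ID3 probe has the identical sequence and gave -0.73, which measures the array and not a separate part of the transcript.

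ID4 fell by 0.56 on the log2 scale (SE 0.07, adjusted p = 1.16e-10). Its 4 probes ranged from -0.94 to -0.50: the overlapping pair printed above gave -0.56 and -0.50, and another pair, starting at positions 943 and 964 of its transcript model, gave -0.85 and -0.94. ID1 had the smallest change of the 4 inhibitors, with a log2 difference of -0.40 (SE 0.12, adjusted p = 0.00271), and its ages overlapped in every genotype. Its second probe was well above background on 1 of 61 arrays and was not retained.

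The retained MESP1 probe had lowest, median and highest levels of 13.68, 13.94 and 14.41 in LW and 13.31, 13.46 and 13.71 in MS fetuses at day 90. At day 110 they were 13.52, 13.65 and 14.00 in LW and 12.21, 12.44 and 12.83 in MS fetuses. Its mean log2 difference was -0.75 (SE 0.05, adjusted p = 1.30e-18), with ages that did not overlap in 3 of 4 genotypes. The second probe of the locus went the other way, with a log2 difference of 0.33 (SE 0.07, adjusted p = 6.79e-05). It was read in 59 fetuses, since 2 spots were marked as non-uniform. The probes of this locus thus moved in opposite directions, and the values below are those of the retained probe. As that probe is counted only through lists chosen on these same samples, its age call is not independent of them.

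**Figure D2:**
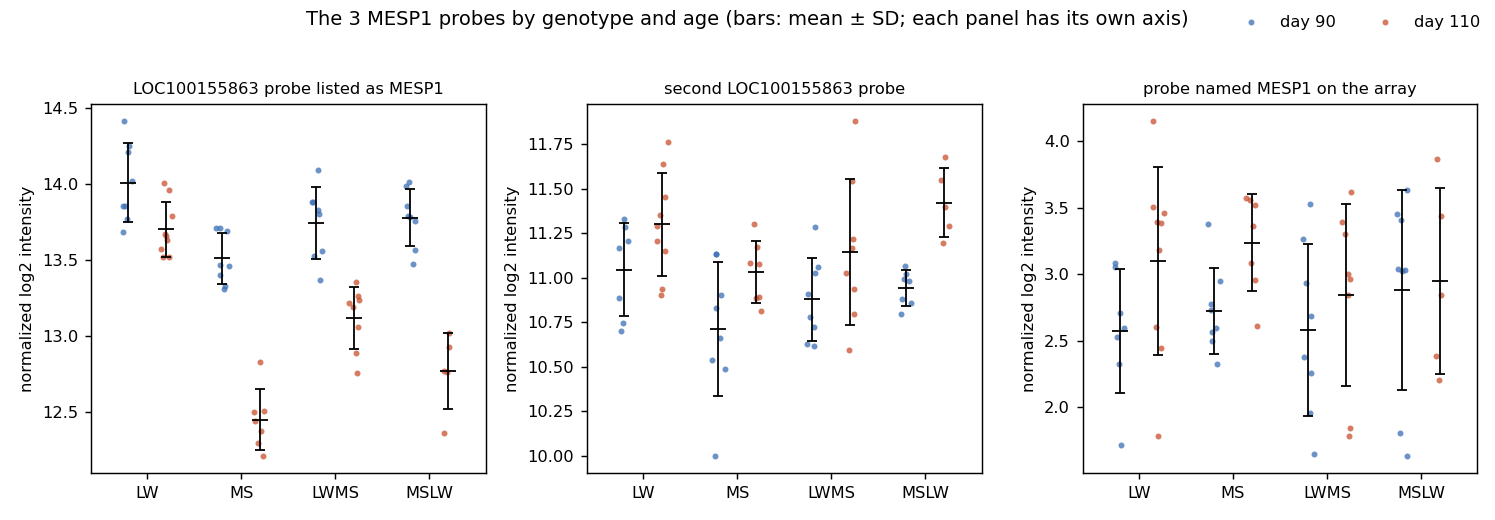
Normalized log2 intensity of the 3 probes tied to MESP1 by fetal genotype and age, with the mean and SD in black and a separate axis in each panel. The retained probe (left) falls to between 12.21 and 12.83 in MS fetuses at day 110, the second probe of the locus (middle) rises, and the probe named MESP1 (right) stays at or under 4.15 on the 60 arrays where it was read; on the other its spot was non-uniform and left out.

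HEY1 fell by 0.39 on the log2 scale (SE 0.06, adjusted p = 2.97e-07), and its 4 probes ranged from -0.42 to -0.20, all called. TWIST1 had lowest, median and highest levels of 7.23, 7.36 and 7.47 in LW fetuses at day 90 and of 7.10, 7.71 and 8.38 at day 110. The LW fetuses of day 110 were spread more widely, and their range held that of day 90.

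**Figure D3:**
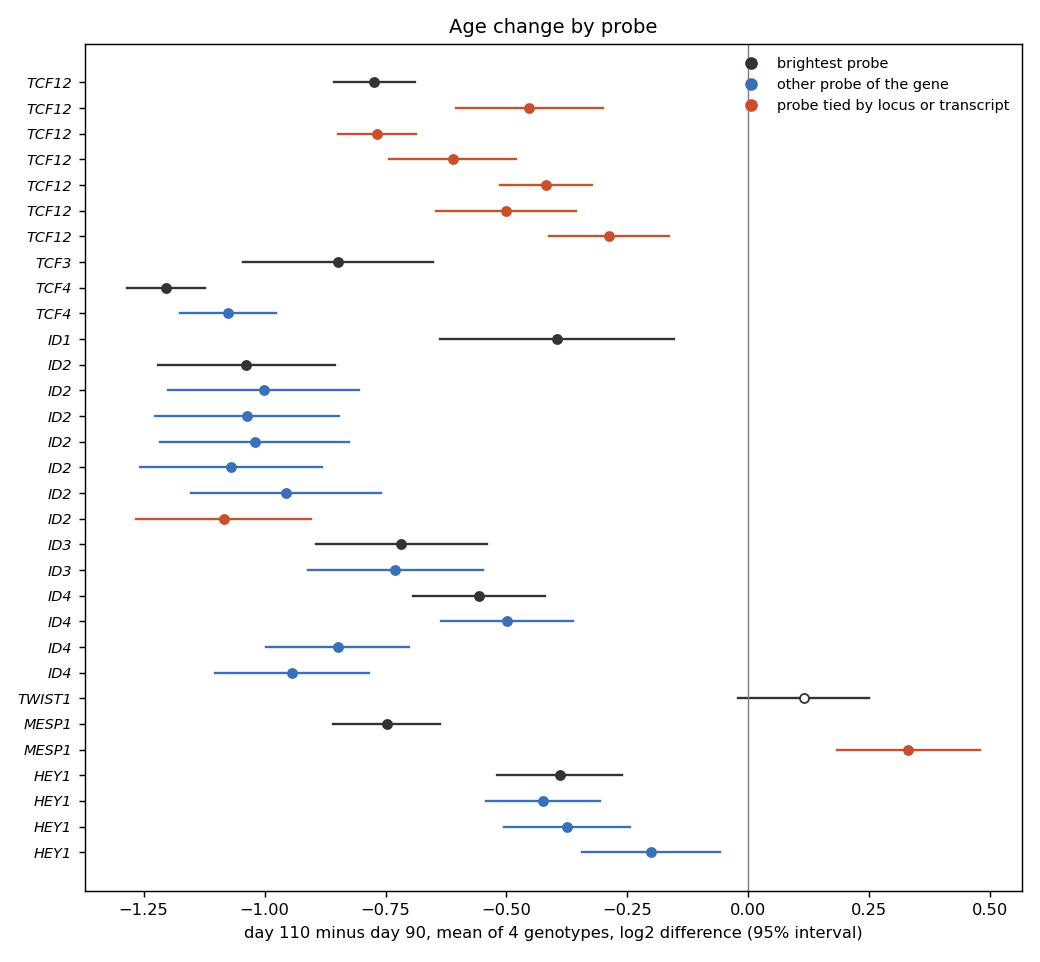
Log2 difference between day 110 and day 90, averaged over the 4 genotypes, with its 95% interval, for the 23 retained probes (black, the brightest of each gene; blue, the others) and for 8 probes tied to a gene by locus or transcript only (red); open points did not pass the test. Probes of a gene lie on the same side of 0 except those of MESP1.

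Taken genotype by genotype, the age change was called lower for 5 of 10 genes in LW fetuses and 8 in MS fetuses, where 23.5% and 28.1% of all retained probes were called lower. For the crosses the counts were 8 in LWMS and 7 in MSLW fetuses, beside 25.8% and 23.8% of all retained probes. TCF12, TCF3, TCF4, ID2 and the MESP1 probe fell in all 4 genotypes. ID3 and ID4 fell in MS, LWMS and MSLW fetuses, and in LW fetuses their log2 differences were -0.30 (adjusted p = 0.122) and -0.23 (adjusted p = 0.121). Of the other 3 ID4 probes, 1 was called in LW fetuses (-0.47, adjusted p = 0.00584), and another gave -0.40 (adjusted p = 0.0114). HEY1 fell in MS and LWMS fetuses, and ID1 passed in no single genotype. TWIST1 was the only one of the 10 that rose in a genotype, by a log2 difference of 0.41 in LW fetuses (SE 0.13, adjusted p = 0.00549), where 21.8% of all retained probes rose. That call was lost under 5 of the alternatives tried, and the call of the MESP1 probe in LW fetuses, -0.31 (adjusted p = 0.00974), under 6.

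**Figure D4:**
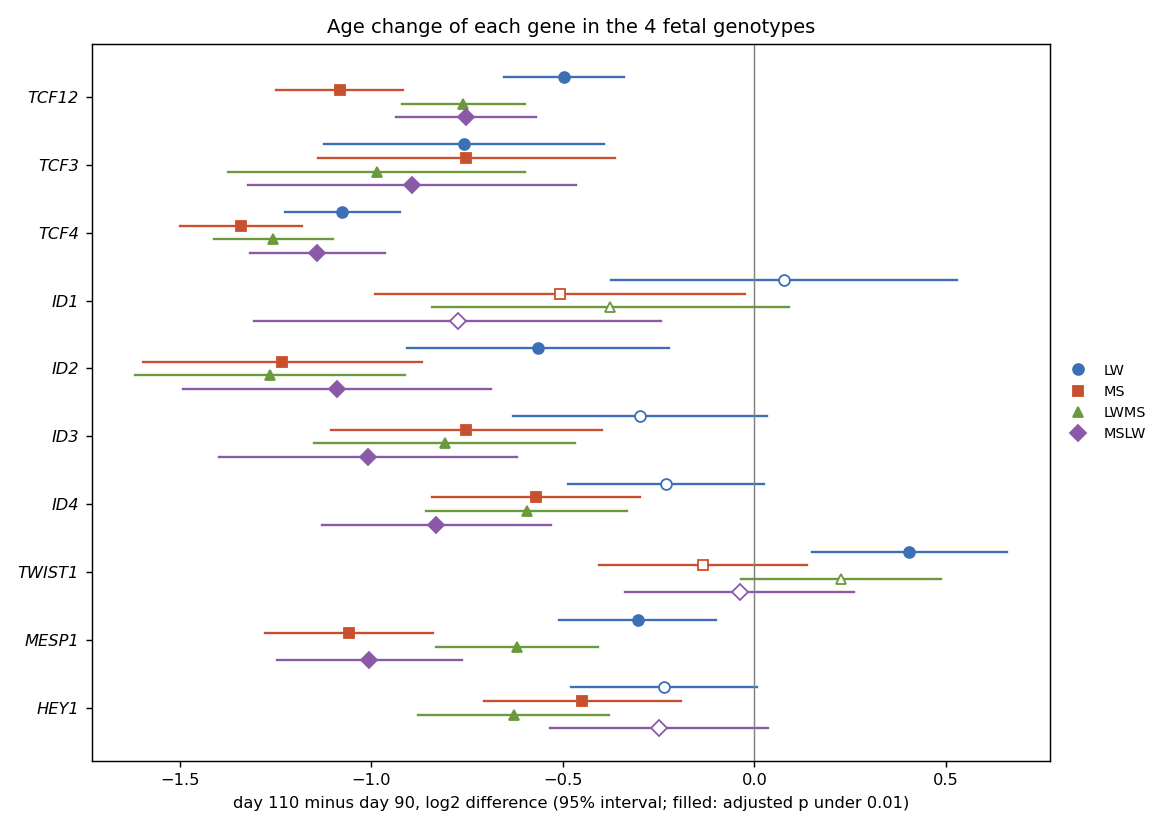
Log2 difference between day 110 and day 90 (horizontal axis, with its 95% interval) for each gene in LW, MS, LWMS and MSLW fetuses; filled symbols had an adjusted p under 0.01. TCF4 lies between -1.34 and -1.08 in all 4 genotypes, and TWIST1 is above 0 in LW with a filled symbol.

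The test of whether the 4 genotypes changed by different amounts with age, a moderated F test over 3 contrasts in limma, was passed by 2 of 10 genes and by 3.18% of all retained probes. They were TCF12 (F = 8.85, adjusted p = 0.00356) and the MESP1 probe (F = 10.80, adjusted p = 0.000984). Both depended on the probe, since 1 of the 6 probes of the transcription factor 12-like locus passed (F = 10.86, adjusted p = 0.000946), the other 5 had adjusted p between 0.0481 and 0.934, and the second probe of the MESP1 locus had an adjusted p of 0.882. The 2 passing probes stand in gene lists that the study chose, on these same samples, for age changes that differed by genotype or parent. The MESP1 probe is counted only through that listing. Neither result, nor the comparison of pure breeds that follows, is independent of that choice. Between the pure breeds alone, the same 2 genes fell more in MS than in LW fetuses, where 3.4% of all retained probes had a lower age change in MS. Of all probes called in this comparison 42.9% were higher in MS, and 61% when arrays were scaled to the 75th percentile in place of quantiles, while both genes were called lower with either scaling. For TCF12 the log2 difference with age was -0.50 (SE 0.08) in LW and -1.08 (SE 0.08) in MS fetuses, so that the difference between them was -0.59 (95% interval -0.82 to -0.36, adjusted p = 0.0003). Of the 6 probes of the TCF12-like locus, 2 were called for this difference (-0.62 and -0.48), and 4 were not, at -0.41 to -0.05 with adjusted p between 0.188 and 0.901. For the MESP1 probe it was -0.31 (SE 0.10) in LW and -1.06 (SE 0.11) in MS fetuses, a difference of -0.75 (95% interval -1.05 to -0.45, adjusted p = 0.000418). The second probe of the MESP1 locus gave 0.07 (SE 0.20, adjusted p = 0.872) for this difference.

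The other 8 genes did not pass this test with their brightest probe. ID2 gave -0.67 (95% interval -1.17 to -0.17, adjusted p = 0.0629) and TWIST1 gave -0.54 (-0.91 to -0.17, adjusted p = 0.0415). For ID4 the outcome depended on the probe. The brightest probe gave -0.34 (adjusted p = 0.231), while the pair starting at positions 943 and 964 gave -0.83 (adjusted p = 0.00345) and -0.92 (adjusted p = 0.00264). With the mean of all ID4 probes the difference was -0.64 (adjusted p = 0.00682).

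At day 90 the pure breeds differed in 2 of 10 genes, both lower in MS, where 6.61% of all retained probes were lower in MS. TCF3 had a log2 difference of -0.71 (SE 0.19, adjusted p = 0.00381) and the MESP1 probe of -0.50 (SE 0.11, adjusted p = 0.000294). In both genes the ranges of the breeds overlapped, and the second probe of the MESP1 locus gave -0.34 (adjusted p = 0.0968). The call of the retained MESP1 probe is not independent of the study's lists, chosen on these same samples, through which it is counted. None of the 4 ID genes passed, and the interval of ID2, for example, ran from -0.42 to 0.28.

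At day 110, 5 of 10 genes were lower in MS and none was higher, where 15.2% of all retained probes were lower. The median over the 10 genes was a log2 difference of -0.52, beside 0.01 over all retained probes. The MESP1 probe had the largest difference, -1.25 (SE 0.11, adjusted p = 2.50e-14), a level 2.38-fold lower, and no MS fetus reached the lowest LW fetus. It is counted only through gene lists that the study chose on these same samples. Its call and rank are therefore not independent of them. The second probe of the locus gave -0.27 (SE 0.14, adjusted p = 0.127). TCF12 had a log2 difference of -0.39 (SE 0.08, adjusted p = 9.41e-05), its 7 MS fetuses at or under 10.68 and its 9 LW fetuses at or above 10.69. For TCF12 this depended on the probe: of the 6 probes of the transcription factor 12-like locus, 1 was called (-0.40, adjusted p = 3.53e-05), and the other 5 were not and ranged from -0.19 to 0.13, with 3 above 0. ID2 gave -0.74 (SE 0.18, adjusted p = 0.00063), TCF3 gave -0.70 (SE 0.19, adjusted p = 0.00215) and ID3 gave -0.66 (SE 0.17, adjusted p = 0.00156). The ranges of the breeds overlapped in these 3. ID1 gave -0.68 (SE 0.23, adjusted p = 0.0165) and ID4 gave -0.36 (SE 0.13, adjusted p = 0.025), although the ID4 pair starting at positions 943 and 964 gave -0.54 (adjusted p = 0.0017) and -0.61 (adjusted p = 0.00118). TCF4, which changed most with age, gave -0.16 (SE 0.08, adjusted p = 0.1).

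**Figure D5:**
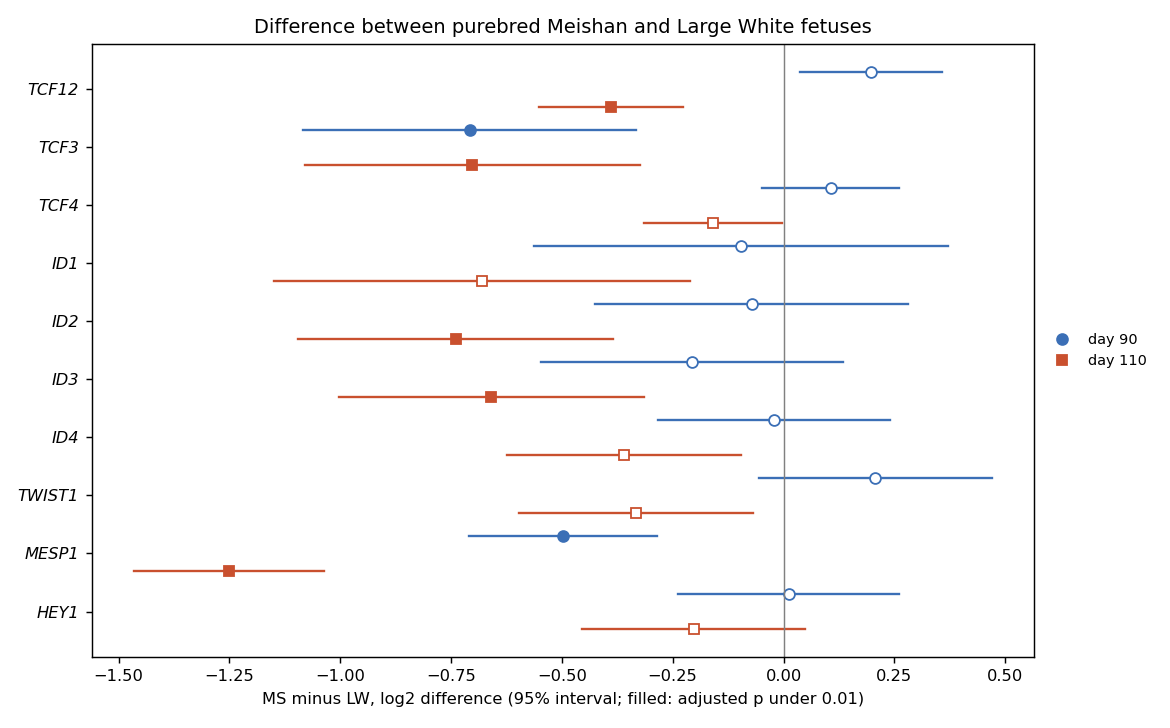
Log2 difference between MS and LW fetuses (horizontal axis, with its 95% interval) at day 90 (blue circles) and day 110 (red squares) for each gene; filled symbols had an adjusted p under 0.01. All 10 values of day 110 are below 0, and that of the MESP1 probe, at -1.25, is the lowest. That probe is counted only through the study's gene lists, which were chosen on these same samples.

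The differences were also taken within slides. Within each of the 8 slides, day 110 was lower than day 90 for the 9 genes that fell, with TCF4 between -1.39 and -1.01 and ID2 between -1.33 and -0.66. These are differences of plain means over the fetuses of each age, not balanced for genotype where a slide lacked a group. The TCF4 value of -1.39 is from a slide with 4 fetuses of day 90 and 2 of day 110. MS was lower than LW at day 110 within all 6 slides that held both groups for TCF12, ID2, ID3 and the MESP1 probe, and within 5 of 6 for TCF3. With the slide as a block the 5 genes lower in MS at day 110 were again called, and ID1 was called as well (-0.77, adjusted p = 0.00665).

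The reciprocal crosses ask whether the breed of the sow or of the boar is associated with the level. None of the 10 genes differed between MSLW and LWMS fetuses at day 90, where 0.5% of all retained probes did, or at day 110, where 0.917% did. At an unadjusted p under 0.05 the counts were 0 and 5. The share of all retained probes at that looser threshold was not taken, so no difference is read from these counts. The largest differences at day 110 were those of ID1, at -0.58 (SE 0.27, adjusted p = 0.281), and ID3, at -0.40 (SE 0.19, adjusted p = 0.309), with lower values in the MSLW fetuses. None of the genes differed between the crosses and the mean of the pure breeds at day 90 or at day 110 (limma), where 0.0495% and 0.0778% of all retained probes did. The counts at an unadjusted p under 0.05 were 0 and 4, again without a share over all retained probes and so not read as a result.

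The fetuses were then grouped by the breed of the boar, MS and MSLW against LW and LWMS. This grouping includes the pure breeds, so it is not separate from their difference reported above. With an MS boar the age change of 1 of 10 genes was lower, where 0.349% of all retained probes were. It was the MESP1 probe, with a log2 difference of -0.57 (95% interval -0.79 to -0.35, adjusted p = 0.00161), and it was called with either scaling, although the share of called probes that were higher moved from 29.9% to 46.2% with the 75th percentile. The second probe of the locus had the opposite sign, at 0.14 (SE 0.15, adjusted p = 0.715). The retained probe's mean at day 110 was 13.70 in LW, 13.12 in LWMS, 12.77 in MSLW and 12.45 in MS fetuses, while at day 90 the crosses, at 13.74 and 13.78, lay between MS at 13.51 and LW at 14.01. The neighbouring groups LWMS and MSLW differed by -0.35 at day 110 (SE 0.12, adjusted p = 0.108). The retained probe is counted only because it stands in gene lists that the study chose on these same samples. Those lists were made for age changes that differed by genotype or parent, so its call here is not independent of them. Grouped by the breed of the sow, which again includes the pure breeds, no gene passed (limma), where 2.92% of all retained probes did. TCF12 was nearest, with -0.30 (SE 0.08, adjusted p = 0.0179). The count at an unadjusted p under 0.05 was 4, without a share over all retained probes to set beside it, so nothing is read from it. Of the 6 probes of the TCF12-like locus 1 passed, at -0.33 (adjusted p = 0.00666).

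The partners and inputs of these proteins were read from fixed lists, with each gene represented by its brightest retained probe. Their counts with age stand beside the 35% of all retained probes that fell and the 37.3% that rose. Of the 4 myogenic bHLH factors, 3 fell with age: MYOG, which drives terminal differentiation, by a log2 difference of -1.06, MYOD1 by -0.99 and MYF6 by -0.59. MYF5, the factor of early myoblasts, gave -0.29 (adjusted p = 0.0868). MYOG was also lower in MS at day 110, at -0.48 (adjusted p = 0.00641).

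Of the relatives of HEY1, 3 were measured, and HES6 and HEY2 fell by log2 differences of -2.02 and -1.23 while HES1 rose by 0.22. HES6, which promotes myogenic differentiation, fell more in MS than in LW fetuses, with a difference of -0.99 (adjusted p = 0.000519), and so did HEY2, with -0.78 (adjusted p = 0.00687). Of the Notch ligands, receptors and cofactors, 4 of 6 measured fell and 1 rose. Among those measured were the receptor NOTCH3 at -0.72, the ligands JAG1 at -0.51 and DLL4 at -0.60 and the DNA-binding factor RBPJ at -0.51. The receptor NOTCH1 gave -0.26 (adjusted p = 0.0304).

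BMP signalling induces the ID genes in many cells. Of 15 measured genes of this pathway, 8 fell with age and 3 rose, with a median log2 difference of -0.18. The receptors BMPR1B and ACVR1 gave log2 differences of -1.16 and -1.11, and SMAD1, the transcription factor they phosphorylate, gave -1.04. The inhibitory SMAD6 rose by 0.97. The secreted antagonists did not move together, as CHRD fell by 1.08 and FST fell by 0.85 whereas NOG rose by 0.41. Of 8 measured cofactors and partners of E-proteins, 4 fell and 3 rose, shares near those over all retained probes, from -0.95 for LMO2, a bridging protein of blood and endothelial cells, to 1.54 for CBFA2T3, a corepressor. Among 5 measured bHLH genes of other tissues or pathways, BHLHE40 rose by 0.97 and BHLHE41 by 0.36, and LYL1 fell by 0.82.

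Markers of other cells of the muscle moved with age as well, though not all in the same direction. All 8 fibroblast markers fell, and their mean log2 intensity lay between 13.39 and 13.83 over the fetuses of day 90 and between 11.49 and 12.61 over those of day 110. It also moved with the breed at day 110, when it lay between 12.02 and 12.60 in LW fetuses and between 11.49 and 11.81 in MS fetuses. In that comparison 5 of 8 fibroblast markers were lower in MS and 1 was higher. Of 8 cycling-cell markers 5 were lower, with a median log2 difference of -0.91 and a mean level of 6.56 to 7.75 in LW and 5.76 to 7.11 in MS fetuses. Both measured tendon markers were lower, and of 6 satellite cell markers 3 were lower and 2 higher. Mural cell markers were mixed, with 2 of 6 lower and 2 higher. The endothelial (7), adipocyte (5) and erythroid (4) lists each had 1 lower and none higher. The immune (7) and Schwann cell (5) lists each had 1 higher and none lower. Over all retained probes 15.2% were lower in MS at day 110 and 13.7% higher. With age, 5 of 7 endothelial markers fell and 1 rose, with means of 10.95 to 11.52 at day 90 and 10.35 to 11.14 at day 110. Of 8 cycling-cell markers 7 fell, from 9.35 to 9.98 at day 90 to between 5.76 and 8.19 at day 110, the exception being the brightest MKI67 probe. Of 6 satellite cell markers 4 fell and 2, PAX7 and PAX3, rose. Mural cell markers fell in 2 of 6 and rose in 2, and Schwann cell markers fell in 1 of 5 and rose in 2. Immune markers fell in 3 of 7 and rose in 1, and erythroid markers fell in 2 of 4 and rose in 1. Adipocyte markers fell in 4 of 5 and rose in none, and both tendon markers fell. The part of these cells in the changes of the 10 genes was not tested.

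For each gene, the 3 other named genes with the most similar profile were found by the root mean square difference between the 8 group means, each centred on its own mean. For TCF4 they were APP, CDH5 and NFIB, with differences of 0.04, 0.05 and 0.05. CDH5 is the adhesion protein of endothelial junctions. For TCF12 they were CRIM1 (0.03), DLC1 (0.05) and BTG3 (0.05), and for TCF3 GNB5, WLS and ODF2, at 0.08 to 0.10. For ID2 they were KIF18A, a mitotic kinesin, MARCH3 and MYOG, at 0.06 to 0.11. For ID3 they were ZNF576, C16ORF46 and TIMP1 at 0.10 to 0.12, and for ID4 CAMKK2, NSMCE4A and MORN3 at 0.07 to 0.09. For the MESP1 probe the nearest were ADAT3 (0.05) and NCAM1 (0.11), the cell adhesion molecule of myoblasts and immature fibres. For HEY1 they were CTSB, SLC25A43 and CHMP2A, at 0.04 to 0.05. The nearest were C14ORF135 for ID1 and ITSN2 for TWIST1, both at 0.07. These are likenesses of 8 means among 9199 other named genes.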

How the data were processed

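RNA of 61 fetuses was hybridised to 1-colour arrays, and the authors deposited the scanner output of Agilent Feature Extraction 10.10.1.1, whose intensity values per spot are not yet normalized between arrays. They also deposited a table of log2 values, quantile normalized by the authors, whose row identifiers are row numbers of the scanner files (median correlation 0.856 with the scanner's median signal when matched so).

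Processed signals of the 60306 spots that are not controls were log2 transformed, and spots marked non-uniform were set to missing. The log2 values were then quantile normalized, and spots of a probe were averaged (R 4.3.3, limma 3.58.1). The 8 groups were fitted with lmFit and eBayes on 42429 probes, with Benjamini-Hochberg adjustment over all of them and a threshold of 0.01. The study's own model had the sow as a random effect, which could not be fitted because the labels do not name the sow. The fit was tested on simulated data, in which 200 of 42429 probes were set to change by 1 on the log2 scale. It recovered 98% of them for the mean age change. For the difference between the MS and LW age changes it recovered 61%, and for the crosses at day 110 73.5%. A gene not called in those comparisons may therefore still differ. Saturation touched at most 2 spots of an array, and the number of arrays limits the precision.

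The 10 genes and the gene lists were chosen with earlier results of these data known. A gene's brightest retained probe stood for it, for the related genes too, and all probes of the 10 genes were recorded. No 2 arrays were alike beyond a correlation of 0.994. Replicates are separate fetuses. Alternatives changed the signal column, background correction, scaling, filter, marked spots, slide, samples in the fit, moderation, the MSLW fetuses of day 110 and the probe of a gene. Probe sequences and their starts come from the scanner files.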

Additional observations from a re-analysis of the deposited data

Results flagged for a closer look

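Of 80 sets of values (10 genes in 8 groups), 5 held a fetus far from the others by Dixon's criterion, and chance alone flags about 1 in 20 such sets. TCF12 measured 11.33 in 1 LW fetus of day 110, where the next was 11.01, and 10.19 in 1 MS fetus of day 110, where the next was 10.48. TCF3 measured 4.90 in 1 MSLW fetus of day 90, where the next was 5.90. TCF4 measured 12.76 in 1 MSLW fetus of day 110, where the next was 12.17. HEY1 measured 10.45 in 1 LW fetus of day 110, where the next was 11.23.

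The age change differed between genotypes for TCF12 and the MESP1 probe. Both stand in gene lists that the study chose on these same samples for such differences, so these results are not independent of that choice. For TCF12 the difference between the MS and LW age changes was -0.59, and the F value over the 4 genotypes was 8.85. Of the 6 probes of the transcription factor 12-like locus, 4 were not called for the MS and LW difference (-0.41 to -0.05) and 5 did not pass the F test. For the MESP1 probe the difference between the MS and LW age changes was -0.75, the F value was 10.80, and the difference by the breed of the boar was -0.57. The second probe of the MESP1 locus did not show the difference between MS and LW (0.07, SE 0.20) and had the opposite sign by the breed of the boar (0.14, SE 0.15), and the cause was not tested.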

How the results depend on the processing

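Of 50 values called for a gene in a comparison, 34 kept their sign and their call under every alternative run, and of 831 recomputed values 806 did. Fitting only the groups compared lowered the genes called in LW with age from 6 to 3 (ID2, TWIST1 and the MESP1 probe were lost) and those called between MS and LW at day 110 from 5 to 3 (ID2 and ID3 were lost, at adjusted p = 0.015 and 0.012). Over all 42429 retained probes the calls went from 19225 to 18124 in LW with age. Between MS and LW at day 110 they went from 12287 to 9107. At day 90 the count between MS and LW fell from 2 to 1 when a probe had to be above background in every fetus, which left TCF3 untested, and to 1 when the non-uniform spots were kept. Over all probes tested these calls went from 5447 of 42429 to 4309 of 29826 and to 5322 of 42429. With the non-uniform TCF3 spot kept, all 7 calls of TCF3 were lost, and its age change in LWMS fetuses reversed to 0.36 (adjusted p = 0.681). Scaling to the 75th percentile in place of quantiles gave the MESP1 probe no change with age in LW (-0.000796, adjusted p = 0.996), and lost the mean age change of ID1 (-0.26, adjusted p = 0.0565). It also lost the age calls of ID3 (-0.42, adjusted p = 0.0392) and HEY1 (-0.33, adjusted p = 0.0254) in MS. The MESP1 probe was lost in LWMS (-0.29, adjusted p = 0.0191) and TWIST1 in LW (0.37, adjusted p = 0.0104). The genes called with age in MS went from 8 to 6, while calls over all retained probes went from 24040 to 24210. Without each MSLW fetus of day 110 in turn, the genes called by the breed of the sow ranged from 0 to 1, and TCF12 was called (-0.34, adjusted p = 0.00516) without replicate 1. Over all retained probes these calls ranged from 744 without replicate 3 to 1575 without replicate 1. Leaving out the MSLW array farthest from its group, chosen after seeing the data, changed no count. Limiting the fit to the groups compared gives the same fit as before for the mean age change, the F test and the breeds of boar and sow, which use all groups. No paired analysis was possible because the replicate numbers only follow the order of deposit. Dim probes, TCF3 above all, limit what can be said of their genes.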
